A study of Homo sapiens with 6 samples.

Results

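The core and linker histone genes of the histone clusters were examined in Hep3B cells, an established human hepatocellular carcinoma line, with and without knockdown of DAGLA. Members were all protein-coding genes whose symbol in GENCODE release 29 begins with HIST1H, HIST2H, HIST3H or HIST4H. Of 71 such genes, 56 had a row in the deposited table of 29908 genes, and the other 15 were not analysed here. The 56 comprised 5 linker histone H1 genes, 12 H2A, 15 H2B, 12 H3 and 12 H4 genes. The HIST1 cluster on chromosome 6 held 43 of them, the HIST2 and HIST3 clusters on chromosome 1 held 9 and 3, and HIST4H4 on chromosome 12 stood alone. In Hep3B-KD cells a lentivirus delivered an shRNA (short hairpin RNA) to DAGLA, which encodes the enzyme that makes the endocannabinoid 2-arachidonoylglycerol. Hep3B-Con cells carried a control lentivirus, which the design text calls an empty vector and the sample titles a control hairpin. Both were infected at a multiplicity of 5 and selected with puromycin, and how many clones entered a library was not given. The sample records name a single hairpin target and no second hairpin, so that other effects of the hairpin cannot be told apart from the knockdown. Each group had 3 libraries of RNA.

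Core histones form the octamer around which DNA is wound, and the linker histone H1 binds where the DNA enters and leaves it. The clustered genes are known as replication-dependent histone genes because their mRNAs rise when a cell copies its DNA and fall when it stops. These mRNAs typically end not in a poly(A) tail but in a short conserved stem-loop, which is bound by SLBP and trimmed by its own processing machinery. Some of the same genes can also give longer or spliced transcripts that carry a poly(A) tail. The RNA was made into libraries with a TruSeq RNA kit, and whether poly(A) RNA was selected is not given in the sources used here. In these bulk samples, a different share of cells copying their DNA, a different amount of histone RNA per cell and a different share of RNA with a tail cannot be told apart. By flow cytometry, the paper reported arrest of Hep3B-KD cells at G1/S, with a larger share in G1.

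The stem-loop is shown for 5 genes whose values are described later, with the hairpin in capitals and its flanks in lower case. They were read from GENCODE release 29 transcripts (GRCh38), 5′ to 3′ on the strand of the gene.
HIST1H2BD (transcript HIST1H2BD-202, chr6:26158582-26158611, plus strand): ccaaaGGCTCTTTTAAGAGCCacgcatgtt
HIST1H2BC (transcript HIST1H2BC-202, chr6:26123463-26123492, minus strand): ccaaaGGCTCTTTTAAGAGCCacccagata
HIST1H2AC (transcript HIST1H2AC-201, chr6:26124664-26124693, plus strand): ccaaaGGCTCTTTTCAGAGCCcccctaccg
HIST1H4H (transcript HIST1H4H-201, chr6:26285122-26285151, minus strand): ccaaaGGCCCTTTTCAGGGCCgcccacttt
HIST2H2BE (transcript HIST2H2BE-201, chr1:149886179-149886208, minus strand): ccaaaGGCTCTTTTCAGAGCCacccaccta
A stem-loop of this form, with a perfect 6-base stem that opens with GG around a loop of TTTC or TTTA, was present in an annotated transcript of 25 of the 56 genes (44.6%). It was present in 22 of 19850 other protein-coding genes (0.111%). The replication-independent H1, H2A and H3 variants were left out of these. The 15 cluster genes with no row were not left out, and how many of the 22 they make up was not counted. Only 3 hairpin sequences occurred among the 25 genes, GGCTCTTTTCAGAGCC in 15 of them and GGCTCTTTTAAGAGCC and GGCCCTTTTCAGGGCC in 5 each. The hairpin follows the stop codon, and 22 of the 56 genes are annotated with the coding sequence only. In 17 of the 25 genes an annotated transcript ran over 100 bases past the hairpin, and in HIST1H2AC-201 it ran 1128 bases past it. HIST1H2BD and HIST1H2BC each have a 1-exon transcript that holds the hairpin and a spliced 2-exon transcript that does not.

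The targeted gene was checked first. DAGLA had 9.42, 9.40 and 9.02 FPKM (reads scaled to gene length and library reads) in the Hep3B-Con libraries and 4.62, 4.46 and 4.78 FPKM in the Hep3B-KD libraries, a log2 fold change of -0.99 ± 0.0441 (SE) with an adjusted p of 5.25e-06. Reads recovered from FPKM, exon length and library total numbered 15861039 to 17572714 per library. Of hepatocyte and liver cancer markers, all 15 were in the table, with sums of 5525 to 5655 FPKM in Hep3B-Con and 8746 to 8876 FPKM in Hep3B-KD. That sum was mostly ALB, APOA2 and AMBP, and of the 15 genes 10 rose and 4 fell (FGA, FGB, FGG and HNF4A, with log2 fold changes of -1.23, -0.96, -0.44 and -0.35). Of all genes tested, 36.1% rose and 23.8% fell. PTPRC, VWF, CDH5 and KDR, which mark leukocytes and endothelial cells, were each under 0.1 FPKM in every library. The first principal component held 53.3% of the variance and separated the groups. Adjusted p-values are from limma, fitted on log2(FPKM + 0.1) over 14221 genes that averaged 0.5 FPKM or more. Log2 fold changes are given as Hep3B-KD minus Hep3B-Con, and the added 0.1 shrinks the change of low genes. Their median over all genes tested was 0.11. The p-values measure the spread between these libraries, since nothing in the labels ties them to separate infections.

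Histone cluster mRNA was a small part of each library and lay in few genes. The 56 genes together held 1406 to 1429 reads in the Hep3B-Con libraries and 1781 to 1882 in the Hep3B-KD libraries, or 0.00804% to 0.0117% of all reads. The 5 genes of highest mean FPKM (HIST1H2BK, HIST1H1C, HIST1H2AC, HIST1H2BD and HIST3H2A) held 70.2% to 75.2% of these reads. Only 4 genes averaged at least 100 reads per library and 12 at least 20, while 39 averaged 10 or fewer and 16 had 3 or fewer in every library. The filter was on mean FPKM, which also depends on gene length, and 21 of the 56 genes passed it. HIST1H4D, of 312 exon bases, passed with a mean of 3.33 reads. HIST1H2BN, of 5477 exon bases, did not pass with a mean of 27.5 reads. Those 21 had a median of 25.8 reads against 403 for all genes tested, and 10 of them averaged under 20 reads, against 12% of all genes tested. By class, 1 H1, 5 H2A, 7 H2B, 3 H3 and 5 H4 genes were tested.

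Of the 21 genes tested, 4 rose in Hep3B-KD cells (19.0%), where 36.1% of all genes tested rose. They were HIST1H1C, HIST1H2AC, HIST1H2BC and HIST1H2BD, and their log2 fold changes were 0.55 to 1.39. HIST2H2AC and HIST1H3A fell (9.52%), where 23.8% of all genes tested fell. With a fold change of at least 2 added, HIST1H2BC and HIST1H2BD were higher (background 5.89%) and HIST2H2AC lower (background 2.94%). The same 4 and 2 genes were those whose groups did not overlap among the genes tested, where all 3 Hep3B-KD libraries lay above all 3 Hep3B-Con libraries in 40.7% of genes and below them in 26.3%. In either direction 6 of 21 members (28.6%) passed the test against 59.9% of all genes tested, with the lower depth given before. The median log2 fold change was 0.17 over the members tested. Quantile normalization brought it to -0.05, and leaving out Hep3B-Con replicate 3 or Hep3B-KD replicate 1 to -0.01 and -0.05.

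**Figure D1:**
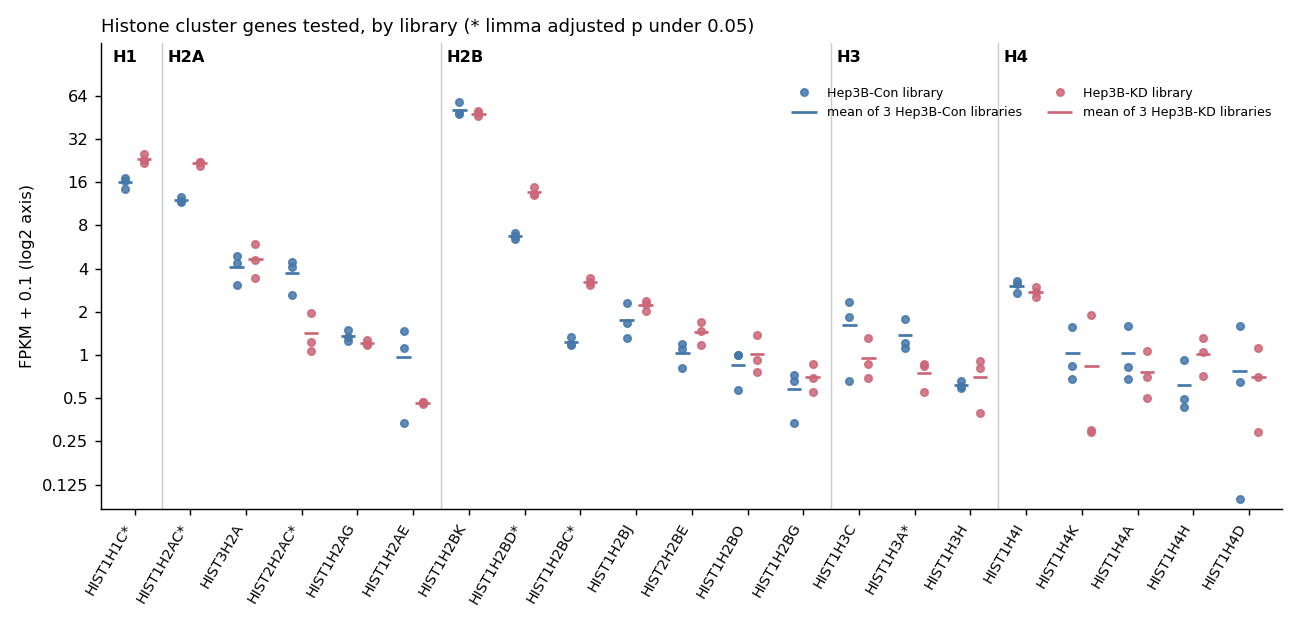
FPKM + 0.1 on a log2 axis for the 21 histone cluster genes tested, grouped by class, with 1 point per library, a dash at the mean of each group and a star for an adjusted p under 0.05. The 3 Hep3B-KD points of HIST1H1C, HIST1H2AC, HIST1H2BD and HIST1H2BC lie above the 3 Hep3B-Con points, those of HIST2H2AC and HIST1H3A lie below, and the other groups overlap.

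Among the linker histones 1 gene carried nearly all signal. HIST1H1C, which encodes H1.2, had 17.1, 14.2 and 16.3 FPKM in Hep3B-Con and 22.9, 24.9 and 21.8 FPKM in Hep3B-KD. Every Hep3B-KD library was above every Hep3B-Con library, and the gene rose by a log2 fold change of 0.55 ± 0.0789 (adjusted p = 0.00101). It rested on 159 to 257 reads per library and has no close copy at the level of 50-base stretches. The other 4 H1 genes were under the filter. HIST1H1E had 2 to 7 reads in Hep3B-Con and 0 to 4 in Hep3B-KD, and HIST1H1B had 0 to 4 and 1 to 3. HIST1H1A and HIST1H1D had at most 2 reads in any library, so that no difference was detectable at this depth. H1F0, the replication-independent linker histone known for its presence in differentiated cells, was at 94.7, 97.3 and 94.6 FPKM in Hep3B-Con and at 138, 141 and 141 FPKM in Hep3B-KD (log2 fold change 0.55 ± 0.0185, adjusted p = 1.85e-06).

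The H2A genes moved both ways. HIST1H2AC had 11.6, 11.7 and 12.6 FPKM in Hep3B-Con and 20.8, 21.9 and 22.0 FPKM in Hep3B-KD. The groups were far apart relative to their spread, the log2 fold change was 0.84 ± 0.0441 (adjusted p = 9.88e-06), and with 339 to 610 reads it was the deepest histone cluster gene. HIST2H2AC had 4.38, 2.51 and 4.01 FPKM in Hep3B-Con and 1.13, 0.958 and 1.85 FPKM in Hep3B-KD. It fell by 1.41 on the log2 scale (SE 0.288, adjusted p = 0.0051), from 17 to 30 reads down to 6 to 12. Only 69.5% of its 50-base stretches are unique among annotated transcripts, so its reads are uncertain. No gene shares more of the rest than HIST2H2AA3. HIST2H2AA3 and HIST2H2AA4, which are near-identical to each other (0.0% and 2.9% unique), had at most 4 reads in any library.

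The other H2A genes tested did not pass the test. HIST3H2A, at 2.99, 4.31 and 4.77 FPKM in Hep3B-Con and 5.85, 3.34 and 4.51 in Hep3B-KD, had a log2 fold change of 0.17 ± 0.241 with groups that overlapped. HIST1H2AG had 1.24, 1.15 and 1.39 FPKM against 1.09, 1.08 and 1.18 (log2 fold change -0.16 ± 0.12), where only the highest Hep3B-KD library reached into the Hep3B-Con range. HIST1H2AE had 1.01, 1.36 and 0.236 FPKM against 0.372, 0.367 and 0.355, or 9, 12 and 2 reads against 3 in each Hep3B-KD library. Its log2 fold change was -0.81 ± 0.551 (adjusted p = 0.246). Without Hep3B-Con replicate 3, the low library, it was -1.45 with an adjusted p of 0.00474, so that 1 library decided that call.

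Among the histone cluster genes tested, the H2B genes held both the highest level and the largest rises. HIST1H2BK had 47.8, 48.5 and 57.4 FPKM in Hep3B-Con and 48.3, 49.7 and 46.0 FPKM in Hep3B-KD. The groups overlapped, and the log2 fold change was -0.09 ± 0.0728 (adjusted p = 0.33). Only 25.9% of its 50-base stretches are unique, so its level is uncertain. The others are shared with 11 genes, none of which shares more of them than H2BFS. HIST1H2BD had 6.99, 6.67 and 6.28 FPKM in Hep3B-Con and 13.2, 14.7 and 12.9 FPKM in Hep3B-KD, with no overlap and a log2 fold change of 1.02 ± 0.0646 (adjusted p = 2.12e-05). HIST1H2BC had 1.09, 1.24 and 1.08 FPKM in Hep3B-Con and 2.95, 3.14 and 3.32 FPKM in Hep3B-KD, from 15 to 18 reads up to 39 to 46. Its log2 fold change of 1.39 ± 0.0919 (adjusted p = 2.64e-05) was the largest of the 21. The stretches shared by HIST1H2BC and HIST1H2BD are few, since 93.4% and 94.6% of theirs are unique.

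Further H2B genes had values that did not pass the test. HIST2H2BE, at 1.09, 0.996 and 0.712 FPKM against 1.61, 1.08 and 1.37, differed by 0.50 ± 0.209 on the log2 scale (adjusted p = 0.0805), and its lowest Hep3B-KD library fell just inside the Hep3B-Con range. Without Hep3B-KD replicate 2, that library, it was 0.64 with an adjusted p of 0.048. HIST1H2BJ had 1.56, 1.21 and 2.21 FPKM against 1.92, 2.29 and 2.16 (0.37 ± 0.206), where the third Hep3B-Con library was as high as the Hep3B-KD ones. Without that library it was 0.59 with an adjusted p of 0.0172, and without Hep3B-Con replicate 2 it was 0.18 and did not pass. HIST1H2BO and HIST1H2BG had log2 fold changes of 0.24 ± 0.319 and 0.34 ± 0.38 on at most 19 reads. Of the 8 H2B genes under the filter, HIST1H2BN was the deepest. It had 13, 19 and 18 reads in Hep3B-Con and 42, 39 and 34 reads in Hep3B-KD, spread over an annotated exon length of 5477 bases. In the fit over all 29908 genes its log2 fold change was 0.95 (adjusted p = 0.0386), and 393 of its exon bases overlap HIST1H2AK, so the reads there cannot be assigned with certainty.

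Among the H3 genes the levels were low and the direction mixed. HIST1H3A had 1.11, 1.68 and 1.02 FPKM in Hep3B-Con and 0.767, 0.454 and 0.733 FPKM in Hep3B-KD, or 8, 12 and 7 reads against 5, 3 and 5. It fell by 0.86 on the log2 scale (SE 0.262, adjusted p = 0.0266). With limma voom on the recovered reads the adjusted p was 0.151, and without Hep3B-Con replicate 2 or Hep3B-KD replicate 2 it was 0.0815 and 0.0635. HIST1H3C ranged from 0.554 to 2.24 FPKM in Hep3B-Con and from 0.587 to 1.21 FPKM in Hep3B-KD, so that one group lay inside the range of the other (log2 fold change -0.62 ± 0.504). Its call turned on 1 library, at -1.18 with an adjusted p of 0.0198 without Hep3B-Con replicate 1 and at -0.26 without Hep3B-Con replicate 2. HIST1H3H had 0.506, 0.558 and 0.486 FPKM against 0.714, 0.805 and 0.292, where 1 Hep3B-KD library was the lowest and the other two the highest of the 6. HIST1H3E, under the filter, had 11, 13 and 8 reads in Hep3B-Con and 19, 23 and 34 reads in Hep3B-KD, with a log2 fold change of 1.03 in the fit over all genes (adjusted p = 0.0407). HIST1H3B had at most 5 reads, with 2, 2 and 1 in Hep3B-Con and 5, 0 and 3 in Hep3B-KD.

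None of the 5 H4 genes tested passed the limma test, and 1 of them, HIST1H4H, did with voom (adjusted p = 0.0394). In the limma fit none of the 5 had an unadjusted p under 0.05 either. HIST1H4I was the deepest, at 3.03, 2.62 and 3.16 FPKM in Hep3B-Con and 2.44, 2.65 and 2.89 FPKM in Hep3B-KD, a log2 fold change of -0.14 ± 0.0974 with overlapping groups. HIST1H4H had 0.395, 0.825 and 0.333 FPKM against 0.612, 1.21 and 0.947, where only the highest Hep3B-Con library exceeded the lowest Hep3B-KD one (0.77 ± 0.372, adjusted p = 0.119). Without that Hep3B-Con library, replicate 2, it was 1.10 with an adjusted p of 0.0329. HIST1H4K, HIST1H4A and HIST1H4D rested on 0 to 9 reads per library. HIST1H4K had 1.46, 0.738 and 0.578 FPKM against 0.202, 1.80 and 0.193, and no annotated 50-base stretch of it is unique. Without Hep3B-KD replicate 2, the high one, its log2 fold change was -1.69 with an adjusted p of 0.0193, against -0.80 with all libraries. HIST4H4, under the filter, had 16, 16 and 12 reads in Hep3B-Con and 21, 28 and 21 in Hep3B-KD.

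Summed over each class in FPKM, the groups were apart in H1 and H2A and overlapped in H2B, H3 and H4. All 56 genes together gave 111, 111 and 121 FPKM in Hep3B-Con and 135, 140 and 132 FPKM in Hep3B-KD, and the groups did not overlap. The means were 114 ± 5.44 and 136 ± 3.77 FPKM (SD, n = 3), a log2 difference of 0.25, for which a two-sided exact permutation test gave p = 0.1, the smallest that 3 against 3 libraries allow. The H1 and H2A sums reached the same p, at 16.4 ± 1.35 against 23.6 ± 1.47 FPKM and 22.6 ± 1.45 against 29.9 ± 1.31 FPKM. The H2B sum was 63.6 ± 4.86 against 71.0 ± 2.5 FPKM (exact permutation p = 0.2), the H3 sum 4.32 ± 1.28 against 3.94 ± 0.605 FPKM (exact permutation p = 0.8) and the H4 sum 7.41 ± 1.22 against 7.09 ± 1.04 FPKM (exact permutation p = 0.9). Adjusted over these 6 sums, the p-values were 0.2 to 0.9. FPKM gives short genes more weight than reads do, and HIST1H2BK, of uncertain level, makes up most of the H2B sum. In RPM, reads scaled to the library total without gene length, the H2B sum was 32.2, 31.9 and 34.8 in Hep3B-Con and 42.8, 44.8 and 41.7 in Hep3B-KD, which did not overlap. The H3 and H4 sums overlapped in RPM too. The 51 genes other than the top 5 summed to 24.6 ± 1.28 FPKM in Hep3B-Con and 24.6 ± 0.946 FPKM in Hep3B-KD. In RPM they summed to 23.0, 24.1 and 22.7 against 27.8, 29.9 and 29.6, so that the groups were apart there.

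**Figure D2:**
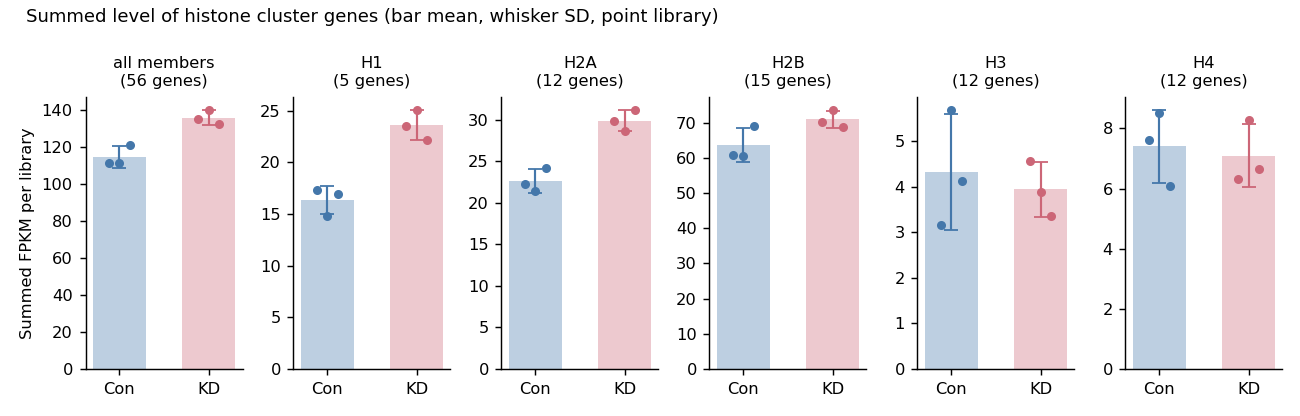
Summed FPKM of the histone cluster genes in each library, for all 56 genes and by class, with bars at the mean of 3 libraries, whiskers of 1 SD and a point per library. The Hep3B-KD points lie above the Hep3B-Con points for all genes, H1 and H2A, and the groups overlap for H2B, H3 and H4.

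The rises lay in genes with an annotated spliced transcript more than in the others, a split that was chosen after the values had been seen and is described without a test. GENCODE release 29 gives a transcript of more than 1 exon for 13 of the 56 genes, and 11 of them have a spliced transcript that lacks the stem-loop searched for. In HIST1H2BJ, HIST1H3E, HIST1H3J, HIST2H4A and HIST2H4B no annotated transcript holds it, spliced or not. In the fit over all genes 12 of the 13 had a higher mean in Hep3B-KD, with a median log2 fold change of 0.77, against 25 of the 43 genes without one, with a median of 0.10, and a median of 0.12 over all 29908 genes, of which 61.9% were higher. Among the genes tested these were 5 of 5 (HIST1H2AC, HIST1H2BC, HIST1H2BD, HIST1H2BJ and HIST1H4H, median 0.84) and 7 of 16 (median -0.11), where 59.3% of all genes tested were higher. Of those at least 80% unique, 8 of 8 genes with a spliced transcript were higher, with a median of 0.89, and 21 of 33 without one, with a median of 0.14. The split goes partly with depth. The 5 genes tested with a spliced transcript averaged 25.8 to 463 reads, and the 10 genes tested under 20 reads all lacked one. HIST1H1C and HIST1H2BK, also without one, averaged 208 and 315 reads. HIST2H4B, counted among the 12, had 1 read in 1 library and 0 in the others. The part played by depth was not tested. The 13 genes summed to 22.7, 23.0 and 23.4 FPKM in Hep3B-Con and 41.7, 45.4 and 43.6 FPKM in Hep3B-KD, while the other 43 summed to 88.5, 88.1 and 97.2 FPKM and 92.9, 94.3 and 88.8 FPKM. Without the 3 genes called, the spliced sum was 3.29 ± 0.241 against 5.26 ± 0.464 FPKM. Without HIST1H1C, which was called higher, and HIST1H2BK, which was not called, the sum of the remaining 41 unspliced genes was 24.2 ± 1.08 against 20.8 ± 0.99 FPKM. That sum kept both genes called lower, HIST2H2AC (mean 3.63 against 1.31 FPKM) and HIST1H3A (1.27 against 0.652 FPKM). In RPM that sum was 19.7 to 20.4 against 18.6 to 20.9, and the groups overlapped.

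Over the whole table, all 3 Hep3B-KD libraries lay above all 3 Hep3B-Con libraries in 12 of the 56 genes (21.4%), where 26.0% of all 29908 genes did so, and below them in 2 (3.57%), against 14.1%. Of the 12, 4 were tested and 8 were under the filter. Those 8 were HIST1H2BN, HIST1H3E, HIST4H4, HIST2H2BF, HIST2H4A, HIST1H2BE, HIST1H2AL and HIST2H2AA3, all but the last 2 with a spliced transcript. HIST1H2AL and HIST2H2AA3 had 2 reads or fewer in every library, at which such an order says little. HIST1H2BE had 1, 0 and 3 reads in Hep3B-Con and 3, 5 and 4 in Hep3B-KD, a tie at 3 reads. HIST2H4A had 2, 3 and 1 against 7, 4 and 8, and HIST2H2BF 2, 6 and 6 against 7, 13 and 9. Of the 50-base stretches of these 3 genes, 69.5%, 2.5% and 73.1% are unique, so their order is weak as well.

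**Figure D3:**
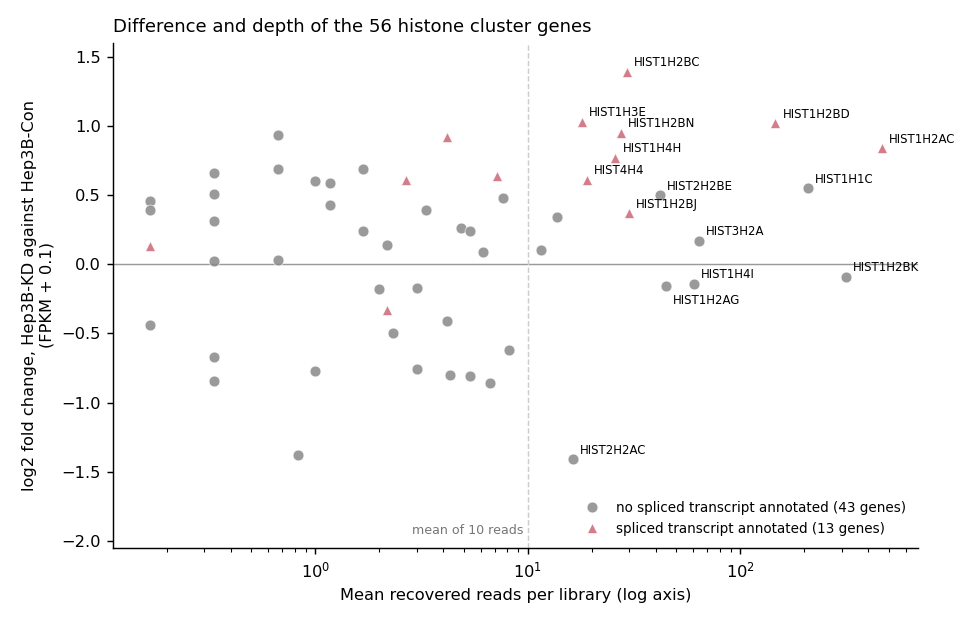
Log2 fold change from the fit without a filter (y axis) against the mean recovered reads per library on a log axis (x axis) for the 56 histone cluster genes, with triangles for genes with an annotated spliced transcript and circles for the others. The triangles above 10 reads all lie above 0, from HIST1H2BJ at 0.37 to HIST1H2BC at 1.39, whereas the circles lie on both sides of 0.

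Many H2A and H2B genes stand head to head and share a promoter, in which the octamer motif ATTTGCAT binds POU-domain factors. The 300 bases around the start of 47 members were found in the RefSeq promoter table (GRCh38.p14). ATTTGCAT, searched on both strands, was present in 11 of 15 H2B and 8 of 9 H2A promoters and in none of the 5 H1, 8 H3 and 10 H4 promoters, against 1.77% of 35116 promoters. CCAAT was present in all H1, H2A, H2B and H3 promoters and in 1 of 10 H4 promoters, against 34.6%, and TATAAA in 63.8% of the 47 against 11.5%. No matches of 2 motifs overlapped in the promoters of members. In 5 pairs the same octamer lay in both promoters. It is shown in capitals, on the strand of the H2B gene, for the 4 pairs with a gene tested, which are compared next.
HIST1H2BC and HIST1H2AC (chr6:26124031-26124060, minus strand): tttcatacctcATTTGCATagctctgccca
HIST2H2BE and HIST2H2AC (chr1:149886710-149886739, minus strand): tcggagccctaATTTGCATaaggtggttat
HIST1H2BJ and HIST1H2AG (chr6:27132824-27132853, minus strand): ctcttcaccttATTTGCATaagcgattcta
HIST1H2BG and HIST1H2AE (chr6:26216718-26216747, minus strand): ttgaattctttATTTGCATgaaaggcctat

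The log2 fold changes of the 2 genes of a pair did not always have the same sign. HIST1H2BC and HIST1H2AC, whose annotated starts are 219 bases apart, both rose, by 1.39 and 0.84 on the log2 scale, and 11.6 to 12.6 FPKM of HIST1H2AC stood beside 1.08 to 1.24 FPKM of HIST1H2BC in Hep3B-Con. HIST2H2BE and HIST2H2AC, 323 bases apart, had log2 fold changes of 0.50, which did not pass the test, and -1.41, which did. HIST2H2AC had 30, 17 and 26 reads beside 42, 38 and 26 of HIST2H2BE in Hep3B-Con, and 7, 6 and 12 beside 56, 38 and 50 in Hep3B-KD. The reads of HIST2H2AC, with 69.5% of its 50-base stretches unique, are uncertain. The difference between the 2 genes of a pair was not tested. HIST1H2BJ and HIST1H2AG, 292 bases apart, had 0.37 and -0.16, and HIST1H2BG and HIST1H2AE, 283 bases apart, had 0.34 and -0.81, none past the test. HIST1H2BK, at 46.0 to 57.4 FPKM, stood 331 bases from HIST1H2AH, which had at most 1 read in any library. In HIST3H2A and HIST3H2BB, 234 bases apart, 47 to 83 reads stood beside 0 to 4.

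Genes that make, process, degrade or handle histones were counted in the same fit, in which 36.1% of all genes tested rose and 23.8% fell. None of the counts was tested against that background. Of 16 genes of histone transcription and 3′ processing, 7 rose and 7 fell, with a median log2 fold change of -0.02 beside 0.11 over all genes tested. CASP8AP2 (FLASH), a factor of histone gene transcription and processing, rose from 1.39, 1.09 and 1.54 to 2.90, 2.93 and 2.93 FPKM (1.08 ± 0.126, adjusted p = 0.000352). NPAT, the coactivator of histone genes, rose from 0.916 ± 0.0195 to 1.64 ± 0.196 FPKM (0.77 ± 0.122, adjusted p = 0.00158), and CCNE1, the cyclin E1 that acts with CDK2 on NPAT, from 17.1 ± 0.768 to 30.2 ± 0.374 FPKM (0.82 ± 0.0369). ZNF473, a zinc finger protein of the processing complex, fell by 0.78 on the log2 scale. SLBP, which binds the stem-loop, was at 92.3, 87.0 and 87.1 FPKM in Hep3B-Con and 97.6, 99.7 and 95.8 FPKM in Hep3B-KD (0.14 ± 0.0293, adjusted p = 0.00603), close to the median of all genes. With libraries centred on the median log ratio its log2 fold change was 0.03 and did not pass.

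Of 10 genes of histone mRNA decay, 7 rose and 2 fell (background 36.1% and 23.8%), with a median of 0.40. SMG1, a kinase of UPF1, rose by a log2 fold change of 0.73 ± 0.034 (adjusted p = 6.3e-06), the uridylyltransferase TUT4 by 0.69 ± 0.0866 and the exosome nuclease DIS3 by 0.57 ± 0.0998. UPF1 itself fell from 40.0 ± 0.858 to 33.8 ± 0.616 FPKM (-0.24 ± 0.0261). ERI1, an exonuclease that trims the histone 3′ end, had 5.34 ± 0.289 and 6.73 ± 0.404 FPKM (0.33 ± 0.0624, adjusted p = 0.00365).

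The 11 replication-independent variants tested split into 5 that rose and 3 that fell (background 36.1% and 23.8%), with a median of 0.14. Besides H1F0, the macroH2A gene H2AFY2 rose from 39.8 ± 5.16 to 58.9 ± 4.23 FPKM (0.57 ± 0.0981). CENPA, the centromeric H3, fell from 8.15, 7.11 and 8.57 to 4.77, 5.06 and 4.83 FPKM (-0.69 ± 0.0742, adjusted p = 0.000249). Among the 18 histone chaperones tested, 9 rose and 2 fell (same background), with a median of 0.13. HJURP, the chaperone that loads CENPA, fell from 48.6, 52.1 and 51.7 to 23.6, 23.6 and 24.4 FPKM (-1.08 ± 0.0336, adjusted p = 1.34e-06), while ATRX rose by 1.13 ± 0.109 and CABIN1 by 0.67 ± 0.0294.

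Of 24 genes of DNA replication, 11 rose and 7 fell, beside 36.1% and 23.8% of all genes, with a median of 0.06. MCM6, a subunit of the replicative helicase, rose from 31.7 ± 0.462 to 76.4 ± 0.821 FPKM (1.27 ± 0.0208, adjusted p = 1.25e-07). UNG, which removes uracil from DNA, rose by 0.68 ± 0.0339. RRM2, the small subunit of ribonucleotide reductase, fell from 18.0, 19.0 and 18.6 to 9.43, 9.99 and 8.28 FPKM (adjusted p = 3.22e-05).

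**Figure D4:**
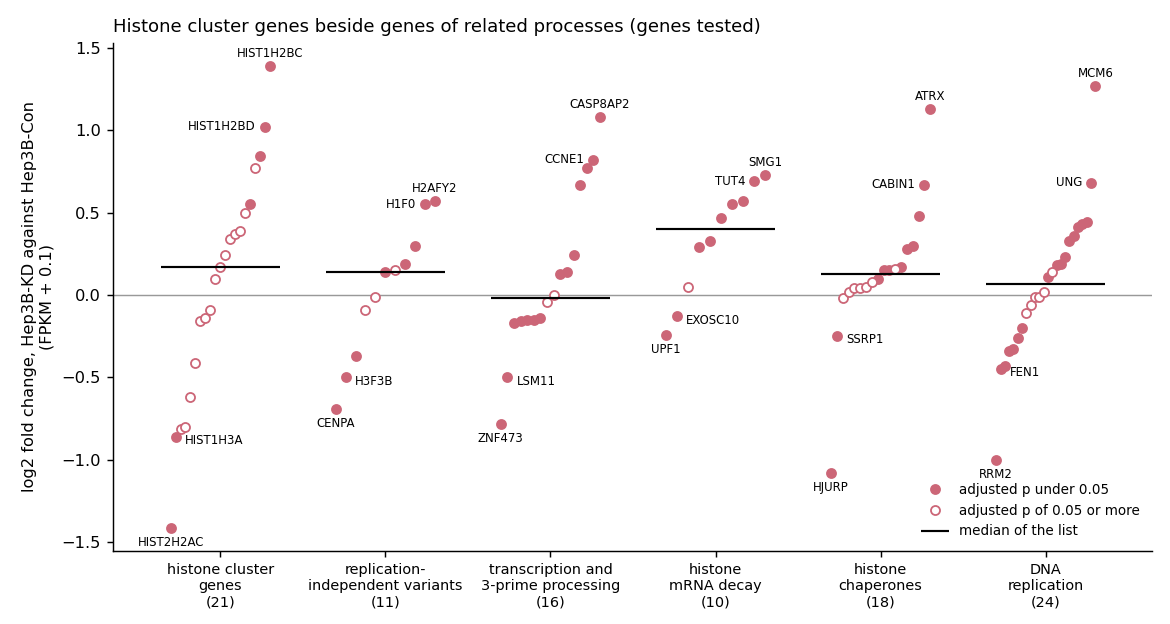
Log2 fold change of each gene tested, in the histone cluster genes and in 5 lists of related genes, with filled circles for an adjusted p under 0.05, open circles for the others and a bar at the median. The medians lie between -0.02 for transcription and 3′ processing and 0.40 for histone mRNA decay, and every list holds genes on both sides of 0.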

How the data were processed

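RNA-seq of 6 Hep3B libraries, 3 Hep3B-Con and 3 Hep3B-KD, was analysed. The authors deposited FPKM values for 29908 genes, with 0 other columns of per-sample values. The submitters' processing notes name Bowtie2 2.0.6, TopHat2 2.0.12 and GRCh37, without roles. FPKM times GENCODE 29 exon length (GRCh38) and library total gave whole reads, within 0.01, for 100.0% of values. How reads that match several genes were counted is not given in the sources used here. Genes averaging 0.5 FPKM or more were fitted with limma 3.58.1 (trend) in R 4.3.3 on log2(FPKM + 0.1), with Benjamini-Hochberg adjustment, after tests on simulated data. Called means an adjusted p under 0.05. Members and lists were chosen with earlier results of these data known. All members could be named, with values in every library for the 5 highest of each class and those called, and of each list the 3 largest changes called, NPAT and SLBP. ERI1, UPF1 and genes under the filter were named after their values were seen. Sequences were taken from GENCODE and RefSeq by Python 3.11.15.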

Additional observations from a re-analysis of the deposited data

How the results depend on the processing

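Counts and medians of the histone cluster genes were recomputed under other pseudocounts, filters, scalings and fits. The call of HIST1H1C, HIST1H2AC, HIST1H2BC, HIST1H2BD and HIST2H2AC held in all 17 alternatives for each. The number called lower, 2 in the fit reported, was 1 with no filter, with a mean of at least 1 FPKM, with voom, with voom and no filter, with the replicate block and over members at least 80% unique, and 4 with quantile normalization. It was 1 to 3 when each library was left out, with 1 without Hep3B-Con replicate 2. With a fold change of at least 2, the number higher was 0 with a pseudocount of 1, 1 with median centring or quantile normalization and 4 with voom and no filter, and 1 to 3 when each library was left out, with 1 without Hep3B-Con replicate 3 or Hep3B-KD replicate 2. The number lower was 0 with a pseudocount of 1 or over members at least 80% unique and 2 with quantile normalization, and 1 to 2 when each library was left out, with 2 without Hep3B-Con replicate 1, Hep3B-Con replicate 3 or Hep3B-KD replicate 2. The median log2 fold change was -0.05 with quantile normalization and 0.39 with voom and no filter, and -0.05 to 0.18 when each library was left out. The log2 difference of the summed FPKM was 0.14 with median centring and 0.55 over members at least 80% unique, a subset without HIST1H2BK. Among genes not called, the direction turned with quantile normalization for HIST1H2BG (-0.01), HIST1H2BK (0.03), HIST1H2BO (-0.05), HIST1H3H (-0.26) and HIST1H4D (-0.08), and with median centring for HIST1H3H (-0.00). It turned without Hep3B-Con replicate 1 for HIST3H2A (-0.02), without Hep3B-Con replicate 3 for HIST1H2BG (-0.01), HIST1H2BO (-0.02) and HIST1H4D (-0.73), without Hep3B-KD replicate 1 for HIST3H2A (-0.02), HIST1H3H (-0.05) and HIST1H4D (-0.05), and without Hep3B-KD replicate 2 for HIST1H3H (-0.12). When each library was left out, the highest values of these genes were 0.37 for HIST3H2A, 0.55 for HIST1H2BG, 0.43 for HIST1H2BO, 0.48 for HIST1H3H and 1.26 for HIST1H4D. The cause was not tested. Median centring moved the median of all genes from 0.11 to 0.01 and the share of calls that were higher from 60.2% to 48.5%. HIST1H3A kept its direction and lost its call in 6 of 16 alternatives. The replicate numbers gave no pairing, since the deviations of same-numbered samples correlated at -0.0656 to -0.0011. The block of replicate number moved the calls over all genes from 5133 higher and 3388 lower to 4766 and 3153. The voom fit with no filter was chosen after seeing the data. Depth limits these results, with 39 of the 56 genes at a mean of 10 reads or fewer, and counting limits cover counting error only.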
